A study of Mus musculus with 4 samples.

Results

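The genes described here are the platelet-derived growth factor (PDGF) ligands Pdgfa, Pdgfb, Pdgfc and Pdgfd, the receptors Pdgfra and Pdgfrb, and Cspg4, which encodes the NG2 proteoglycan. They were chosen by name, and all 7 were found by Ensembl identifier among the 32948 genes of the table and passed the filter on low counts that left 15055 genes for testing. Expression was measured in cells from the ascending aorta and arch of Wnt1-Cre;Rosa26-mTmG mice, a strain whose cells carry red tdTomato until Cre acts and green GFP, with all their descendants, afterwards. Wnt1-Cre drives Cre in the neural crest, so GFP marks cells with a history of Wnt1-Cre and tdTomato the other cells of the same suspension. There were 4 libraries, a GFP and a tdTomato library from each sex. The female cells came from 1 sample and the male cells from a pool of 2 samples, so sex and suspension cannot be told apart. Every library carried the same transgenes, no treatment was given in the labels, and the sources used here give no age for the animals. The submitters labelled all libraries as vascular smooth muscle cells, although the sort described used the fluorescent proteins alone.

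PDGFs are dimeric growth factors. PDGF-A and PDGF-B are processed inside the cell, whereas PDGF-C and PDGF-D are secreted with a CUB domain that proteases must remove before they act. The alpha receptor (Pdgfra) binds the A, B and C chains, and the beta receptor (Pdgfrb) binds mainly B and D. In vessel walls, PDGF-B from endothelium recruits mural cells through the beta receptor, the alpha receptor is a known marker of fibroblasts, and NG2 is carried by pericytes and smooth muscle cells.

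The pattern in brief was as follows. Pdgfa, Pdgfrb and Cspg4 were present in all 4 libraries. Pdgfra was abundant in both tdTomato libraries and nearly absent from both GFP libraries. Pdgfc and Pdgfd were nearly absent from male GFP alone, and Pdgfb was low throughout. No member passed the edgeR test over the 2 pairs, while DESeq2 called Pdgfra between the colours.

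The sequences upstream of 4 members are shown because they belong to 3 of the 4 genes that had at most 4 counts in a GFP library (Pdgfra, Pdgfc and Pdgfd) and to 1 that was present in every library (Cspg4). The other gene with so few counts is Pdgfb. They are RefSeq promoters on GRCm38.p6, all on the plus strand and intergenic in GENCODE M21. They run from 250 bases before the RefSeq start, with Pdgfd and Cspg4 stopped at the first annotated transcript base. Capitals mark matches to the motifs named after them. RefSeq windows were found for 5 of the 7 members.
Pdgfra, chr5:75152001-75152250: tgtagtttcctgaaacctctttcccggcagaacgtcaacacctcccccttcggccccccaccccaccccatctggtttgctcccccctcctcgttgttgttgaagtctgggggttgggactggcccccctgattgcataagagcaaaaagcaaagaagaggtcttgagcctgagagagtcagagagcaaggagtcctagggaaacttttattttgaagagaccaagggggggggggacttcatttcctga
Pdgfc, chr3:81036166-81036415: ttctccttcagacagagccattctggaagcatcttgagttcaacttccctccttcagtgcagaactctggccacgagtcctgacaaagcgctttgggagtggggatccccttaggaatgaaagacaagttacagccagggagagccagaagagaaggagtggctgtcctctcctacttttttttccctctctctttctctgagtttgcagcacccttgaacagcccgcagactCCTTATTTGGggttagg
Pdgfd, chr9:6168236-6168362: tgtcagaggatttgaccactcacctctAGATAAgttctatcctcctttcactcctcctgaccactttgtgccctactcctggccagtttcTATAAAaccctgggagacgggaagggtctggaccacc
Cspg4, chr9:56864854-56865032: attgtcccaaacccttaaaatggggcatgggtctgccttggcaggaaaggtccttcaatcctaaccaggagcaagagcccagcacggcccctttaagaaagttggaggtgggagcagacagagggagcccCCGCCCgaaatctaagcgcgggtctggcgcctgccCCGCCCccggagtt

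Both strands of the 250 bases were searched for 7 motifs: the CArG box of serum response factor, the TATA box TATAAA, the GC box GGGCGG, the E boxes CAGCTG (of muscle factors) and CACGTG, the AP-1 site TGACTCA and the GATA site AGATAA. The Pdgfc window held a CArG box 17 to 8 bases before the RefSeq start, a motif found in 1.48% of 32544 RefSeq windows of that length. The Pdgfd window held TATAAA (12.3% of windows) and AGATAA (9.97%). The Cspg4 window held GGGCGG in 2 places on the minus strand (33.0% of windows hold it). None of these letters was in the Pdgfra window. Pdgfc and Pdgfd, both nearly absent from male GFP, had none of the 7 motifs in common in their windows. Any link of these motifs to the levels was not tested.

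Library totals ran from 10094167 counts in male GFP to 13911111 in female tdTomato, and genes with at least 10 counts from 9439 in male GFP to 16136 in female tdTomato (11942 in female GFP). The GFP libraries therefore detected fewer genes than their tdTomato partners. Levels are CPM, the count of a gene for each 1000000 counts of its library, after TMM scaling, which sets the libraries to a common centre. A library with 0 counts of a gene could by counting error hold up to the worth of 3 counts, which is 0.238 CPM in female GFP, 0.319 CPM in male GFP, 0.200 CPM in female tdTomato and 0.216 CPM in male tdTomato. Where a colour is given a pair of values, the female one comes first. All 8 smooth muscle markers were detected in every library, with summed levels of 14027 to 18547 CPM. Summed macrophage markers were 6.58 CPM in female GFP, 20.1 CPM in female tdTomato and 0.532 CPM in male GFP, but 149 CPM in male tdTomato, where Pdgfd was also highest. Their part in that level was not tested. Mesothelial markers summed to at most 12.3 CPM. Differences between bulk libraries cannot tell fewer cells of a type from less RNA per cell.

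**Figure D1:**
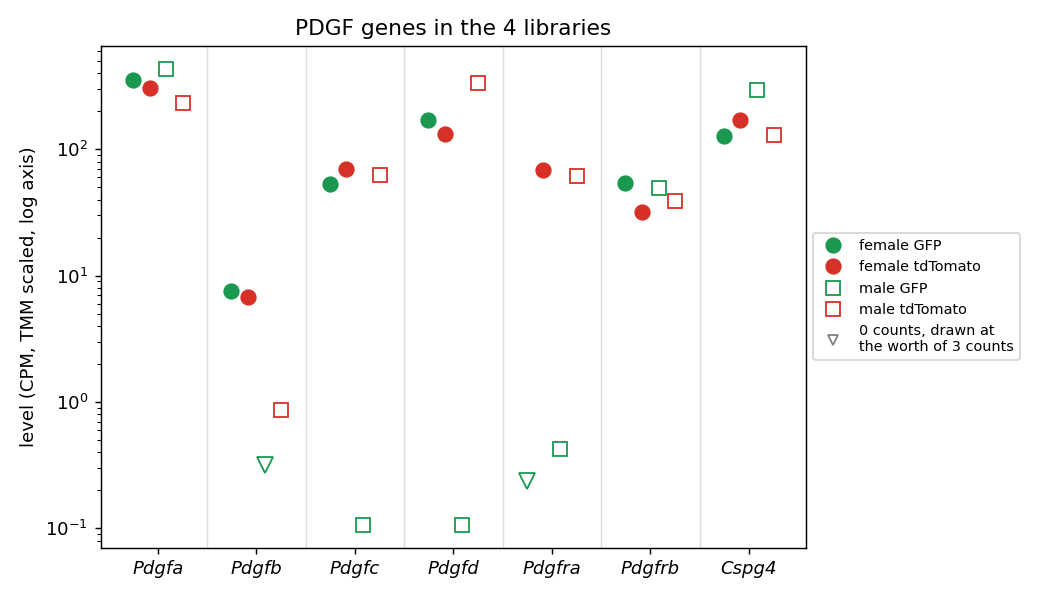
Level of each gene in each library (CPM, TMM scaled, log axis), with circles for female, squares for male, green for GFP and red for tdTomato, and open triangles for 0 counts drawn at the worth of 3 counts. Pdgfra lies at 68.5 and 61.8 CPM in red and at 0.426 CPM or 0 counts in green, and Pdgfc and Pdgfd drop to 0.106 CPM in male GFP alone.

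Pdgfa, which encodes the chain of PDGF-AA, was present at a like level in all 4 libraries. It measured 356 CPM in female GFP with 308 CPM in female tdTomato, while male GFP had 434 CPM and male tdTomato 234 CPM. With TMM scaling both GFP libraries lay above both tdTomato libraries, and the whole range was under 2-fold. The female pair differed by 1.16-fold with GFP above (1.11 to 1.21, an exact 95% interval for counting error) and the male pair by 1.86-fold (1.77 to 1.95). With libraries scaled by their totals the female pair turned to a log2 ratio of -0.01, and scaled by smooth muscle marker counts to -0.14, so the direction there depended on the scaling and the colours then overlapped. Over both pairs the log2 ratio of GFP to tdTomato averaged 0.55 ± 0.48 (SD, n = 2 pairs), and the quasi-likelihood test of edgeR, adjusted over all genes by Benjamini and Hochberg, gave an adjusted p of 1. The antisense gene 6330403L08Rik overlaps exons of Pdgfa and had at most 281 counts, and the library kit does not mark strand.

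Pdgfb, the ligand of endothelium and platelets, had few counts in every library, namely 95 counts in female GFP (7.54 CPM), 101 in female tdTomato (6.75 CPM), 0 in male GFP and 12 in male tdTomato (0.863 CPM). The female libraries were high and the male libraries low in both colours, an order that held for 18.9% of all genes tested (13.7% had the males above). Within tdTomato, female was 7.82-fold higher (4.28 to 15.6), and within GFP at least 23.6-fold higher, taking 3 counts for the library at 0. The test for female against male, over both colours, gave an edgeR adjusted p of 1, with an unadjusted p of 0.132. The colours overlapped: the female pair differed by 1.12-fold with an interval of 0.835 to 1.49 that holds equality, and male tdTomato was at least 2.70-fold above male GFP.

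Endothelial markers followed Pdgfb only in part. Of 10 endothelial markers, female GFP lacked any count for 2 and male GFP for 7, the tdTomato libraries for none, and their summed level was 433 and 279 CPM in tdTomato beside 64.3 and 58.2 CPM in GFP. Flt1, a VEGF receptor, gave most of the GFP sums and was higher there, at 36.1 and 27.0 CPM in tdTomato beside 48.4 and 45.6 CPM in GFP. Cdh5, the cadherin of endothelial junctions, was at 0.0793 CPM in female GFP, where Pdgfb measured 7.54 CPM, and at 23.9 CPM in male tdTomato, where Pdgfb measured 0.863 CPM. Within tdTomato some markers were higher in female, as Pdgfb was. Tek measured 80.2 CPM in female and 12.6 CPM in male tdTomato, Kdr 14.6 and 3.16 CPM, and Emcn 15.4 and 1.80 CPM. Cdh5, Tie1 and Egfl7 were higher in male tdTomato than in female. In female GFP, where Pdgfb was highest, Tek, Kdr and Emcn had at most 2 counts. Of 3 platelet markers in the table all had 0 counts in female GFP. Pf4, the platelet chemokine, stood at 7.81 and 8.77 CPM in the tdTomato libraries and had 0 counts in male GFP. Itga2b, another of the 3, went the other way in the male pair. It measured 14.8 CPM in male GFP, beside 1.14 and 0.431 CPM in female and male tdTomato.

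Pdgfc, a ligand of the alpha receptor, was near one level in 3 libraries. It measured 53.3 CPM in female GFP, 69.9 CPM in female tdTomato and 62.3 CPM in male tdTomato, and had 1 count (0.106 CPM) in male GFP. Both GFP libraries lay below both tdTomato libraries, female GFP by a little and male GFP almost wholly. The excess in tdTomato was 1.31-fold among the female cells (1.19 to 1.45) and 586-fold among the male cells, where the single count gives an interval of 105 to 23156. The log2 ratio of GFP to tdTomato averaged -4.14 ± 5.30 (SD, n = 2 pairs), a spread larger than the mean, and the edgeR adjusted p was 1. An antisense gene model overlaps Pdgfc exons, and its reads could not be separated.

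Pdgfd, a ligand of the beta receptor, had both a high level and a near absence among its 4 values. It measured 170.5 CPM in female GFP, 133 CPM in female tdTomato and 332 CPM in male tdTomato, with 1 count (0.106 CPM) in male GFP. The highest and the lowest value were thus the pair from the male suspension. Female GFP exceeded its partner by 1.29-fold (1.21 to 1.37), whereas male tdTomato exceeded its own by 3119.8-fold (559.7 to 123251). Within tdTomato, male was 2.50-fold higher than female (2.38 to 2.64). Over both pairs the log2 ratio of GFP to tdTomato averaged -4.97 ± 7.54 (SD, n = 2 pairs) and the edgeR adjusted p was 1.

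The near absence of Pdgfc and Pdgfd from male GFP was read against all genes of like level. Of 2013 genes at 50 CPM or more in the other 3 libraries, 5.51% had 1 count or fewer in male GFP, among them Pdgfc and Pdgfd, whereas of 1695 such genes 0.472% had 1 count or fewer in female GFP. These limits were set after the members' values were seen. Fibroblast markers were mixed in male GFP. Dcn, a matrix proteoglycan, measured 2137, 1917 and 2235 CPM in female GFP, female tdTomato and male tdTomato and 153 CPM in male GFP, and Lum, a related proteoglycan, 716, 447, 389.7 and 2.77 CPM in the same order. The summed level of 10 fibroblast markers was 1944 CPM in male GFP and 4545 to 6022 CPM in the other libraries, of which Col1a2 gave 1311 CPM in male GFP and 647 CPM in female GFP. Pi16, a marker of adventitial fibroblasts, was highest in male GFP, at 88.4 CPM against 10.9 CPM in female GFP, 23.5 CPM in female tdTomato and 61.4 CPM in male tdTomato. Of the 10, 1 was at 0 counts in male GFP (Dpt) and 1 in female GFP (Dpep1). The part of fibroblast content, or of the fewer genes detected in male GFP, in the values of Pdgfc and Pdgfd was not tested.

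Levels of different genes can be compared only per length, here as counts per kilobase of the median coding transcript, scaled to library size. On that scale Pdgfa held 74.0% of the summed level of the 4 ligands in female GFP, 73.5% in female tdTomato, nearly all (99.98%) in male GFP and 54.3% in male tdTomato. Pdgfd held 18.0%, 16.1%, 0.0124% and 39.2% in the same libraries, Pdgfc 4.57%, 6.88%, 0.0101% and 5.98%, and Pdgfb 3.49%, 3.58%, 0% and 0.447%. Pdgfa led the ligands in every library under 2 of the 3 lengths tried. With the union of exons as length, Pdgfd led in male tdTomato, at 54.7% against 38.9% for Pdgfa.

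**Figure D2:**
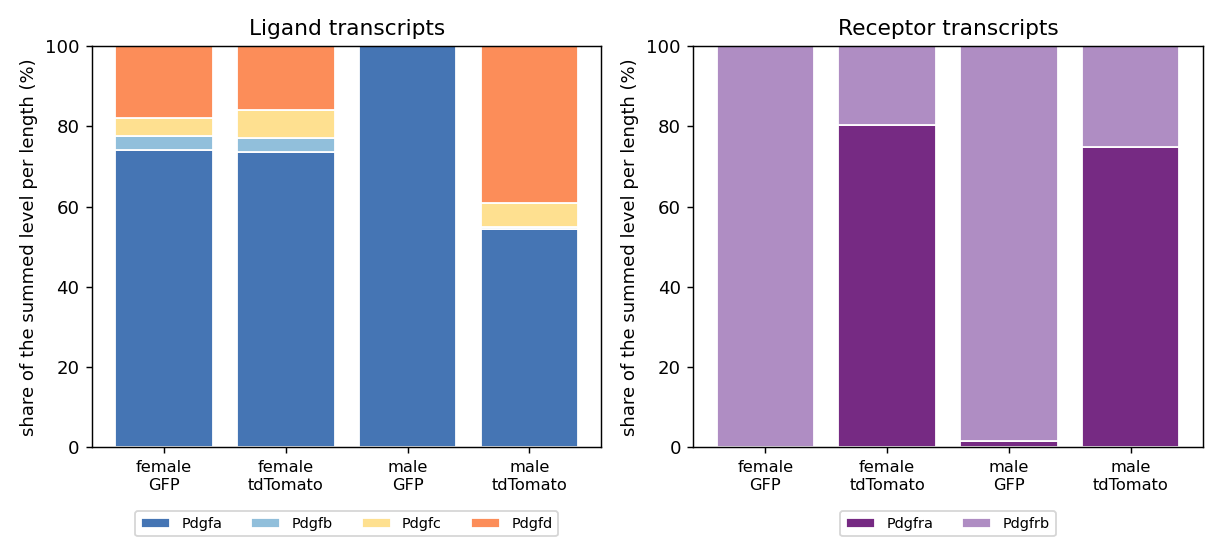
Share of each gene in the summed level per length (percent, median coding transcript) of the 4 ligands (left) and the 2 receptors (right), 1 bar per library. Pdgfa takes 99.98% of the ligand bar in male GFP, and Pdgfra takes 80.2% and 74.8% of the receptor bars in tdTomato but 0% and 1.60% in GFP.

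Pdgfra, the alpha receptor, separated the colours in both pairs. It had 0 counts in female GFP and 1026 counts (68.5 CPM) in female tdTomato, while male GFP had 4 counts (0.426 CPM) and male tdTomato 860 (61.8 CPM). The tdTomato libraries stood close together, 1.11-fold apart (1.01 to 1.21), and far above both GFP libraries. Female tdTomato was at least 288-fold higher than its GFP partner, taking 3 counts for the library at 0, and male tdTomato 145-fold higher (56.5 to 534). Over both pairs the log2 ratio of GFP to tdTomato averaged -7.75 ± 1.44 (SD, n = 2 pairs). The edgeR test gave an unadjusted p of 0.0402 and an adjusted p of 0.577, so the gene did not pass. DESeq2 on the same pairs gave an adjusted p of 0.00589, and limma-voom one of 0.233.

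The edgeR test called 0 of 15055 genes (0%), with an unadjusted p under 0.05 for 8.62% of genes, and DESeq2 called 7.37% (limma-voom 0%). Of the members, DESeq2 called 1, Pdgfra. Both GFP libraries below both tdTomato libraries is common, at 29.3% of genes tested, and 2 of the 7 members (Pdgfra and Pdgfc) had it. The reverse order held for 11.5% of genes and for Pdgfrb and, with TMM but not with library total or smooth muscle marker scaling, Pdgfa. Of 2487 genes that reached 50 CPM in each tdTomato library, 1.45% had 4 counts or fewer in female GFP, 9.77% in male GFP and 0.603%, that is 15 genes, in both. Pdgfra was one of the 15. The limits of 50 CPM and 4 counts were set after its values were seen.

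Fibroblast markers were mixed beside Pdgfra. In female GFP, 5 of the 10 were lower than in tdTomato by 2-fold or more, with a median log2 ratio of -1.01 over the list, and in male GFP 8 of the 10 (median -3.31). In female GFP, Dcn and Lum measured 2137 and 716 CPM beside 0 counts of Pdgfra, no lower than in female tdTomato. Col1a2, a collagen I chain, measured 1390.2 CPM in female tdTomato and 647 CPM in female GFP. Some markers were lower in GFP in both pairs: Dpep1, a dipeptidase, measured 13.7 and 95.8 CPM in tdTomato beside 0 and 0.213 CPM in GFP, and Col14a1, a fibril-associated collagen, 98.7 and 128 CPM in tdTomato beside 8.01 and 18.8 CPM in GFP. The part of fibroblast content in the level of Pdgfra was not tested. Antisense gene models overlap Pdgfra exons, and 1 of them, present in the table, had at most 1 count.

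Pdgfrb, the beta receptor of mural cells, varied least among the 7 genes. It measured 53.8 CPM in female GFP with 31.9 CPM in female tdTomato, while male GFP had 49.3 CPM and male tdTomato 39.2 CPM. Both GFP libraries lay above both tdTomato libraries under all 5 scalings tried. The excess in GFP was 1.69-fold for the female pair (1.5 to 1.90) and 1.26-fold for the male pair (1.11 to 1.43). The log2 ratio averaged 0.54 ± 0.30 (SD, n = 2 pairs), and the adjusted p by edgeR was 1. Within GFP the sexes differed by 1.09-fold with an interval of 0.968 to 1.23.

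Per length, the receptors exchanged rank between the colours. Pdgfra made up 80.2% and 74.8% of the receptor level in female and male tdTomato, and 0% and 1.60% in female and male GFP. The share in tdTomato depended on the length used, at 63.1% and 55.6% with the longest transcript and 54.0% and 46.3% with the union of exons. The median coding transcript of Pdgfra has 2876 bases and its longest transcript 6834. The share in GFP was at or below 1.60% under all 3 lengths. In GFP, therefore, the PDGF receptor transcripts were nearly all Pdgfrb, beside Pdgfa as the leading ligand transcript.

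**Figure D3:**
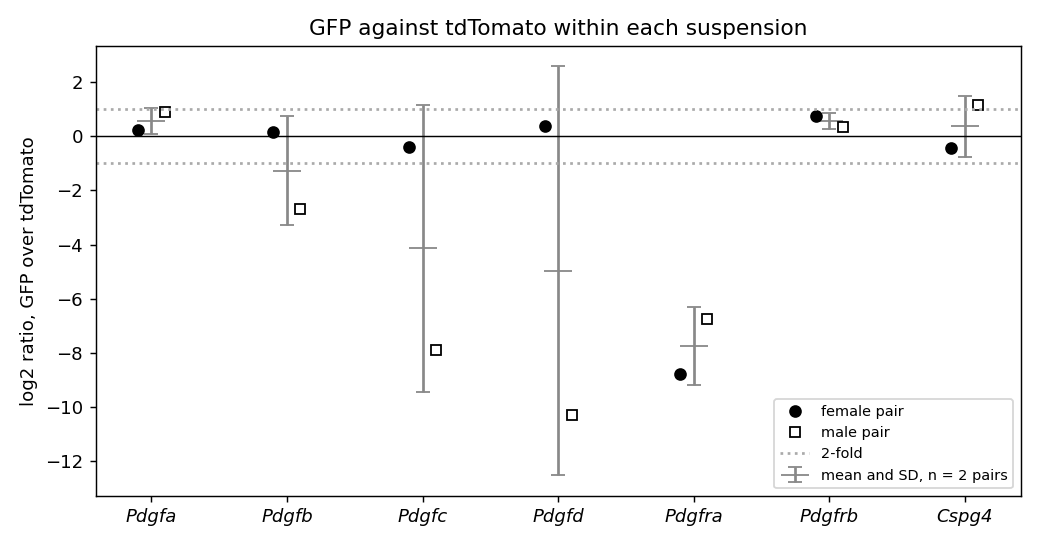
Log2 ratio of GFP over tdTomato (y axis) for each gene within the female pair (filled circles) and the male pair (open squares), with the mean and SD over 2 pairs in grey and dotted lines at 2-fold. Pdgfra is low in both pairs, Pdgfc and Pdgfd in the male pair, and Pdgfa and Pdgfrb lie between 0 and 1 in both, though for Pdgfa the female value is below 0 with library total or smooth muscle marker scaling.

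The members were next read pair by pair. In the female pair none was at least 2-fold higher in GFP (22.1% of all genes) and 1, Pdgfra, at least 2-fold lower (37.7%). In the male pair Cspg4 was at least 2-fold higher (21.6%), and Pdgfb, Pdgfc, Pdgfd and Pdgfra at least 2-fold lower (50% of all genes).

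Cspg4, the NG2 proteoglycan, was abundant in all 4 libraries. It measured 127 CPM in female GFP with 171 CPM in female tdTomato, while male GFP had 293 CPM and male tdTomato 131 CPM. Male GFP stood above the other 3 libraries, and the colours overlapped. Female tdTomato exceeded female GFP by 1.35-fold (1.27 to 1.44), and male GFP exceeded male tdTomato by 2.24-fold (2.11 to 2.38). The signs were opposite under all 5 scalings. Genes of opposite sign in the 2 pairs made up 45.8% of those tested, so this is common. The log2 ratio averaged 0.37 ± 1.13 (SD, n = 2 pairs), and the adjusted p by edgeR was 1.

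Pericyte markers differed in where they were highest. Rgs5, a regulator of G protein signalling, measured 333 and 494 CPM in female GFP and tdTomato and 1690.0 and 292 CPM in male GFP and tdTomato. Kcnj8, a potassium channel subunit, measured 8.65, 5.88, 66.9 and 5.54 CPM in the same order, while Abcc9, its partner subunit, measured 78.3, 149, 95.9 and 134 CPM. Mcam, an adhesion molecule of mural and endothelial cells, was lowest in male GFP, at 1013, 1358, 619.9 and 1091.5 CPM in that order. Of the 7 pericyte markers in the table, 3 (Cox4i2, Notch3 and Ndufa4l2) were at 0 counts in both GFP libraries. The summed level of the 7 was 2473 CPM in male GFP and 1433 to 2016 CPM in the others. Glial cells can also carry NG2. Sox10, the glial transcription factor, had at most 1 count in any library. The part of pericyte or glial content in Cspg4 was not tested.

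By sex, the edgeR test over both colours called 0 of 15055 genes (0%; unadjusted p under 0.05 for 1.74%), limma-voom 0% and DESeq2 0.797%. No member was called by any of the 3 tools. Each sex had 1 suspension, so these tests do not measure variation between animals of a sex. Within GFP, Pdgfc and Pdgfd were 501-fold (89.6 to 19805) and 1601-fold (287 to 63269.9) higher in female, each against 1 count, and Cspg4 was 2.31-fold higher in male (2.17 to 2.46). Within GFP 40.4% of genes were at least 2-fold higher in female and 27.9% at least 2-fold lower, against 21.6% and 20.6% within tdTomato. Within tdTomato only Pdgfb (higher in female) and Pdgfd (higher in male) of the 7 members were over 2-fold apart. The other 5 were within 1.32-fold of each other there.

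**Figure D4:**
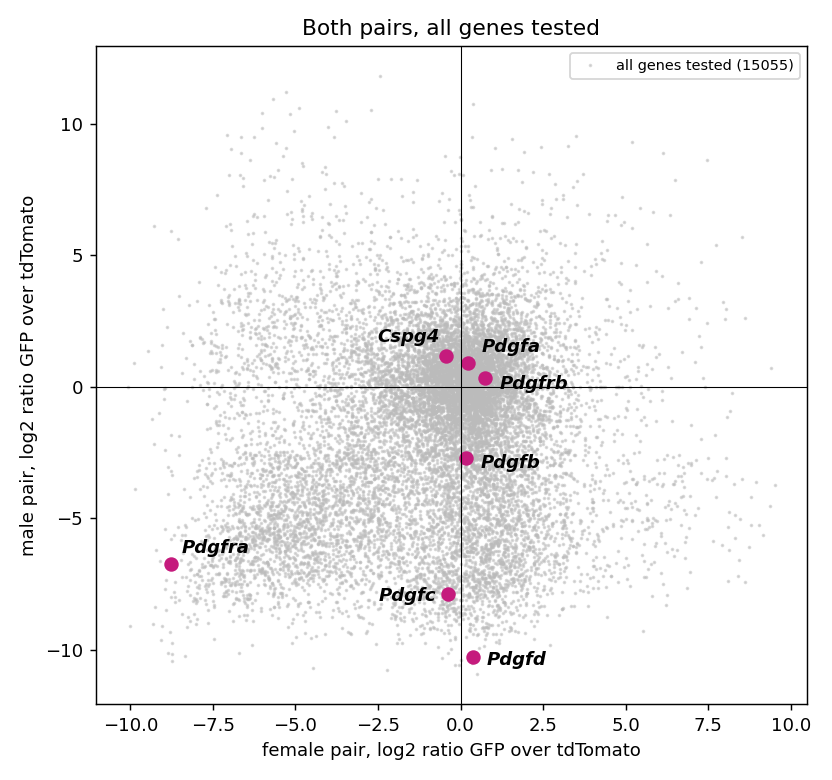
Log2 ratio of GFP over tdTomato in the female pair (x axis) and the male pair (y axis) for 15055 genes (grey) and the 7 members (magenta). Pdgfra lies in the lower left, where 22.9% of genes are at least 2-fold lower in both pairs, and Pdgfc and Pdgfd lie near 0 on the x axis and at the low end of the y axis.

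The genes whose pattern over the 4 libraries was most like each member were taken by the Euclidean distance of centred log2 CPM among 7426 genes. With 4 points, close neighbours arise readily, and the distances are a description. For Pdgfd the closest were Dpt (distance 0.40) and Rnase4 (0.50), and for Pdgfra Cpxm2 (0.52) and Slc22a5 (0.64). Pdgfc was closest to Vps54 (0.12) and Cers5 (0.15), Pdgfb to Castor2 (0.31) and Dennd1b (0.39), and Pdgfa to Anapc5 and Son (0.09 each). Pdgfrb was closest to Rpl24 (0.12) and Iscu (0.13), and Cspg4 to Dalrd3 (0.07) and Gtf2h5 (0.11). Among the members themselves, Pdgfa and Pdgfrb were the closest pair (0.57), then Pdgfa and Cspg4 (0.68), Pdgfrb and Cspg4 (1.07) and Pdgfc and Pdgfd (1.79), and other pairs were at least 3.70 apart.

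Relatives of the PDGF receptors and their ligands were mostly lower in GFP, and none passed the edgeR test. Of 6 tested, 4 were lower in GFP by 2-fold or more in both pairs (22.9% of all genes) and none at least 2-fold higher in both (5.17%). Their median log2 ratios were -1.64 (female pair) and -6.42 (male pair), against -0.27 and -1.0 over all genes. Kit, the receptor for stem cell factor, measured 7.68 and 19.9 CPM in tdTomato beside 0 and 0.213 CPM in GFP, and Kitl, its ligand, 91 and 87.4 CPM in tdTomato beside 0.873 and 0.106 CPM in GFP. By contrast Csf1, a macrophage growth factor, stood at 37.9 and 40.4 CPM in tdTomato beside 45.3 and 47.0 CPM in GFP. Among the 7 VEGF relatives tested, 3 were lower by 2-fold or more in both pairs, among them Vegfd (42.3 and 30.0 CPM in tdTomato beside 4.05 and 0 CPM in GFP). Vegfa, the main endothelial growth factor, measured 34.8 and 50.5 CPM in tdTomato beside 45.8 and 177 CPM in GFP.

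Among 8 tested proteases and co-receptors that act on PDGFs, 6 were lower in GFP by 2-fold or more for the female cells (37.7% of all genes), 4 for the male cells (50%) and 2 for both (22.9%). The male and joint counts lay near those shares, and none passed the edgeR test. Plat, the plasminogen activator that can cleave the CUB domain from PDGF-C, measured 28.1 CPM in female GFP with 32.5 CPM in female tdTomato, while male GFP had 0.213 CPM and male tdTomato 98.3 CPM, low in the same library as Pdgfc. Lrp1, a co-receptor that binds the beta receptor, measured 122 and 104 CPM in tdTomato beside 38.9 and 128 CPM in GFP. Nrp1, a co-receptor shared with VEGF, measured 64.9 and 27.6 CPM in tdTomato beside 1.82 and 43.2 CPM in GFP.

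Receptor adaptors and transducers were present in every library as a group, with 5 of 33 at 0 counts in each GFP library and none in tdTomato. Of the 33, 9 were lower in GFP by 2-fold or more in both pairs (22.9% of all genes) and 1 at least 2-fold higher (5.17%), and 0 passed the edgeR test. The medians were -0.72 and -1.72. The 1 higher was Sos2, an exchange factor for Ras, at 44.4 and 49.8 CPM in tdTomato beside 229 and 322 CPM in GFP. Ptpn11, the phosphatase SHP2 that docks on PDGF receptors, measured 142 and 170.1 CPM in tdTomato beside 125 and 442 CPM in GFP.

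Of 11 negative regulators, 3 were at least 2-fold higher in GFP in both pairs (5.17% of all genes), 2 at least 2-fold lower (22.9%), and 0 passed the edgeR test. The medians were 0.09 and -3.16. Grb10, an adaptor that restrains receptor tyrosine kinases, measured 47.1 and 35.9 CPM in tdTomato beside 183 and 95.5 CPM in GFP, and Lrig1, a membrane inhibitor of such receptors, 13.4 and 23.9 CPM in tdTomato beside 72.4 and 83 CPM in GFP. Cbl, a ubiquitin ligase of activated receptors, measured 24.2 and 42.1 CPM in tdTomato beside 0.159 and 0.426 CPM in GFP.

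Binding partners of NG2 ranged from abundant to nearly absent. Of 10 tested, 2 were at least 2-fold higher in GFP in both pairs (5.17% of all genes) and 2 at least 2-fold lower (22.9%), with medians of -0.28 and -0.27 and 0 past the test. Sdcbp, syntenin, whose PDZ domain binds the NG2 tail, measured 267 and 142 CPM in tdTomato beside 930.4 and 299.7 CPM in GFP, and Fgf2, a growth factor that NG2 binds, 59.1 and 45.2 CPM in tdTomato beside 136 and 123 CPM in GFP. Col6a1, a chain of collagen VI, which NG2 binds, measured 69.6 CPM in female GFP with 91.6 CPM in female tdTomato, while male GFP had 387 CPM and male tdTomato 74.9 CPM, highest in the same library as Cspg4. Other chains of collagen VI did not share this. Col6a2 was lowest in male GFP, at 96.2 and 59.8 CPM in tdTomato beside 65.3 and 11.3 CPM in GFP. Col6a3 was highest in female tdTomato, at 389 and 341 CPM in tdTomato beside 88.4 and 309 CPM in GFP. Itgb1, the beta-1 integrin, measured 466 and 463 CPM in tdTomato beside 651 and 597 CPM in GFP.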

How the data were processed

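The authors deposited 1 table of expected counts, estimates that need not be whole, for each gene. The submitters' processing notes name fastp, HISAT2 and StringTie, and GRCm39 as the build; the counting program was not given in the sources used here. Per the labels' protocols, SMART-Seq v4 libraries were read as pairs. Counts were rounded to whole numbers. Symbols and transcript lengths came from GENCODE M21 (earlier build GRCm38), matched by identifier for 76.4% of genes. Low genes were removed with filterByExpr (minimum 10 counts). The test was edgeR 4.0.16 (R 4.3.3), quasi-likelihood, with suspension as a block because both colours of a pair come from 1 suspension, and with 1 residual degree of freedom and a threshold of 0.05. A check on simulated data required it only to find very large changes at a dispersion (spread between replicates) of 0.05. These data had a common dispersion of 1.47. The simulation was also run at that value with no requirement set, and its recovery there is not reported here. The required check at 0.05 therefore does not show the power of the test here. DESeq2 1.42.0 and limma 3.58.1 were alternatives, beside other scalings and filters, no block, and leaving out libraries. For the colours, p-values measure the spread of the GFP to tdTomato ratio between 2 suspensions. For the sexes they measure the spread of the female to male ratio between the colours, and not between animals of a sex. Log2 ratios of libraries used a prior count of 2. Folds carry exact 95% binomial intervals, which cover counting error only, since PCR copies were not marked. Comparisons of single libraries have no test. The members, lists and naming rule (the 4 most abundant of each pathway list and those 2-fold apart alike in both pairs at 10 CPM, the 3 most abundant and the defining genes of each marker list, and the 2 nearest patterns) were chosen with earlier results of these data known. Dpep1, Col14a1, Dpt, Pi16, Sox10, Cox4i2, Notch3, Ndufa4l2, Tek, Emcn, Tie1, Egfl7 and Col6a2 were named after their values were seen. Some genes of the lists are not reported here by name.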

Additional observations from a re-analysis of the deposited data

Results flagged for a closer look

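For 3 members the GFP and tdTomato libraries differed in opposite directions in the female and male pairs. These differences were not tested, since each pair is 1 library against 1. Opposite signs are common, at 45.8% of all genes tested. The log2 ratio of GFP over tdTomato was 10.7 higher in the female pair than in the male pair for Pdgfd (0.36 against -10.30). It was 2.85 higher for Pdgfb (0.16 against -2.70), whose female value was negative with upper quartile, library total and smooth muscle marker scaling (-0.01, -0.06 and -0.18). For Cspg4 the difference was -1.60 (-0.43 in the female pair against 1.16 in the male pair).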

How the results depend on the processing

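The tests rest on 2 pairs, 1 from a single sample and 1 from a pool. DESeq2 called 1109 genes between the colours and 120 between the sexes where edgeR called 0, and edgeR without the filter on low counts called 2 between the sexes. Of the members, DESeq2 called Pdgfra (log2 fold change -9.18, against -9.13 by edgeR). Without the replicate block, which ignores the shared suspension, edgeR still called 0 genes between the colours (unadjusted p under 0.05 for 1982). Counts of genes at least 2-fold apart depend on low genes: at 50 CPM or more they were 1305 in the female pair (9008 over all), 2077 in the male pair (10768), 2225 within GFP (10273) and 703 within tdTomato (6340).

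The fits that left out 1 library at a time also dropped the suspension block, or the colour term for sex. Their ranges therefore mix both changes. The fitted log2 change of GFP over tdTomato ran from -12.82 to -7.15 for Pdgfra and -8.58 to 2.11 for Pdgfb. It ran from -9.08 to -0.32 for Pdgfc, -10.90 to -0.46 for Pdgfd and -0.26 to 1.03 for Cspg4. With every library and no block it was -0.01 for Pdgfb, -1.31 for Pdgfc and -1.45 for Pdgfd. With the block these were -1.88, -4.44 and -5.08. In the fits without 1 library, the lone library left in an arm is assumed to vary like the others. For female over male the ranges were -0.39 to 0.49 for Pdgfa, 3.02 to 9.46 for Pdgfb, -0.031 to 9.05 for Pdgfc, -1.15 to 10.34 for Pdgfd, -11.54 to 6.30 for Pdgfra, -0.52 to 0.28 for Pdgfrb and -0.97 to 0.18 for Cspg4. With 1 pair, the mean ratio was -2.70 or 0.16 for Pdgfb, -10.30 or 0.36 for Pdgfd and -0.43 or 1.16 for Cspg4. The sex difference of Pdgfa (0.06) turned to -0.0051 with median-of-ratios scaling, -0.0050 with DESeq2 and -0.0073 without the colour term. Without that term the sex difference also turned for Pdgfd (-0.13) and Pdgfra (0.14). None of these had passed the test, and the cause was not tested.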

Other observations

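Pdgfra stands next to Kit and Kdr in RefSeq gene order, and these neighbours, also receptor tyrosine kinases, shared its pattern. Kdr, the main VEGF receptor of endothelium, had 0 counts in both GFP libraries and measured 14.6 and 3.16 CPM in tdTomato, and Kit had 0 and 2 counts in GFP. This group was picked out after its values were seen. Of the 5 protein-coding genes on each side, 9 were in the table, and 5 of these (Fip1l1, Kit, Kdr, Srd5a3 and Tmem165) had both GFP libraries below both tdTomato libraries, as had 29.3% of all genes tested. Clock, the fifth gene on the far side, measured 99.6 and 63.2 CPM in tdTomato beside 81.1 and 88.0 CPM in GFP. Chic2, on the other side, measured 32.0 and 63.3 CPM in tdTomato beside 91.8 and 2.87 CPM in GFP.

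Ptprz1, a receptor phosphatase of glial cells, was abundant in all 4 libraries, with 310 and 212 CPM in tdTomato beside 572 and 453 CPM in GFP (female first), although the glial transcription factor Sox10 had at most 1 count in any of them.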
